A study of Homo sapiens with 12 samples.

Results

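The genes described here are 46 human genes of the extracellular matrix, of the integrins that bind it and of the proteases that cut it. They were chosen by symbol: every probe of the arrays that carried a listed symbol was taken (83 probes), and the probe with the highest mean over the 12 arrays stood for its gene. Of the 46 genes, 43 were tested among 15249 genes in all. FN1 (fibronectin), COL6A2 and COL6A3 were not tested, because their brightest probes were above background (detection p-value under 0.05) on 1, 2 and 1 arrays, fewer than the 3 required. Of the 43 genes, 36 were detected on all 12 arrays, and COL6A1 was detected on 11 arrays, ITGB3 on 9, COL12A1 on 8, COL4A2 on 7, MMP14 on 5, and HSPG2 and FBN1 on 4 each. The listed genes fall into 13 of the basement membrane, 9 other collagens, 7 matrix glycoproteins with the cross-linking enzyme LOX, 9 integrin subunits, and 8 proteases and protease inhibitors.

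The study used EA.hy926, a line of human umbilical vein endothelial cells fused with a lung carcinoma line, which per the labels lacks estrogen receptor alpha. Receptor cells (ERa) carried a stably transfected vector for the human receptor, driven by a CMV promoter as the plasmid's name gives it, and control cells (Ctrl) carried the backbone pCDNA 3.1. Both were kept under puromycin after 8 to 10 colonies had been picked, so they are selected transfectants, and the labels do not say which colonies each culture came from. Receptor protein was seen by western blot, per the labels. Cells were held without serum for 24 h and then given 10 nM estradiol (E2) or ethanol vehicle (Veh) for 16 h. The 4 groups were receptor cells with estradiol, receptor cells with vehicle, control cells with estradiol and control cells with vehicle, with 3 Illumina bead arrays each, numbered 1 to 3. The study calls them biological replicates, but nothing states whether a number marks a clone, a culture or a day, so p-values measure the spread between these arrays.

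Endothelial cells lie on a basement membrane, a sheet in which laminins and type IV collagen form networks that nidogen and the proteoglycans perlecan and agrin tie together. Integrins are surface receptors made of an alpha and a beta subunit that hold cells to laminins, collagens or fibronectin. Matrix metalloproteinases (MMPs) cut matrix proteins, and the tissue inhibitors of metalloproteinases (TIMPs) block them. This balance is known for its part in vessel sprouting and in the repair of the vessel wall.

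Between 38.97% and 41.73% of probes were detected on each array. The brightest probe of ESR1, the receptor gene, was detected on 0 of 12 arrays, receptor cells included, so the arrays give no check of the transfection. Of 12 endothelial markers, 9 were tested and FLT1, CLDN5 and EMCN were detected on no array. The mean level of those 9 ranged over 8.15–8.60 in receptor cells with estradiol and 8.12–8.59 in receptor cells with vehicle, against 8.46–8.63 in control cells with estradiol and 8.59–8.68 in control cells with vehicle, and ENG was called lower in receptor cells under vehicle. Of 10 epithelial markers, 7 were tested, with CDH1 and NKX2-1 detected nowhere. Their mean ranged over 6.68–6.82 and 6.47–6.57 in receptor cells with estradiol and with vehicle, against 6.41–6.44 and 6.34–6.39 in control cells with estradiol and with vehicle. KRT8 and KRT18 were called higher and MUC1 lower in receptor cells with either treatment. KRT19, which passed the detection filter only through receptor arrays, was called at least 2.46-fold higher in receptor cells under estradiol. Of 12 fibroblast and smooth muscle markers 2 were tested and 8 were detected nowhere, and of 8 leukocyte markers 2 were tested, with PTPRC, CD3E and HBB detected nowhere. The part of these markers in the differences of the matrix genes was not tested.

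Receptor cells were compared with control cells under vehicle, and separately under estradiol, which asks how the transfected line differs with and without hormone. Values are normalized log2 levels, differences are log2 differences from 1 limma fit to all 12 arrays with their standard errors (SE), and a gene was called at a Benjamini-Hochberg adjusted p under 0.05 over the 15249 genes. Under vehicle, 12 of the 43 genes were called, 11 lower and 1 higher in receptor cells. The 11 include HSPG2, which passed the detection filter only through control arrays. Among all genes tested, 4.79% were called lower and 3.74% higher. The median difference of the 43 genes was -0.28, against -0.01 over all genes. Under estradiol 5 of the 43 were called, all lower, where 4.36% of all genes were called lower and 3.24% higher, and the medians were -0.08 and -0.01. The comparisons share no array, but they set the same lines against each other. Receptor arrays of the same number also deviated together across treatments, so the comparisons are not independent. ITGB1, ITGB3, MMP2 and MMP10 were called in both, which is 33.3% of the calls under vehicle and 80% of the calls under estradiol. All 12 genes called under vehicle had the same sign under estradiol. The shares over all genes are not given for these counts, so they show nothing particular to the members. With number within line as a random block, which follows the pairing of receptor arrays, MMP2 was not called under estradiol (limma adjusted p = 0.0646) and COL6A1 was called under vehicle as well, so the genes called in both were COL6A1, ITGB1, ITGB3 and MMP10. Without background correction the dimmer genes differed by less, with MMP10 at -0.81 under estradiol and -0.70 under vehicle, ITGB3 at -0.46 and -0.33, MMP2 at -0.25 and -0.49, and COL13A1 at 0.34 under vehicle, all still called. In RNA from whole cultures, fewer cells that express a gene and less RNA per cell cannot be told apart.

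**Figure D1:**
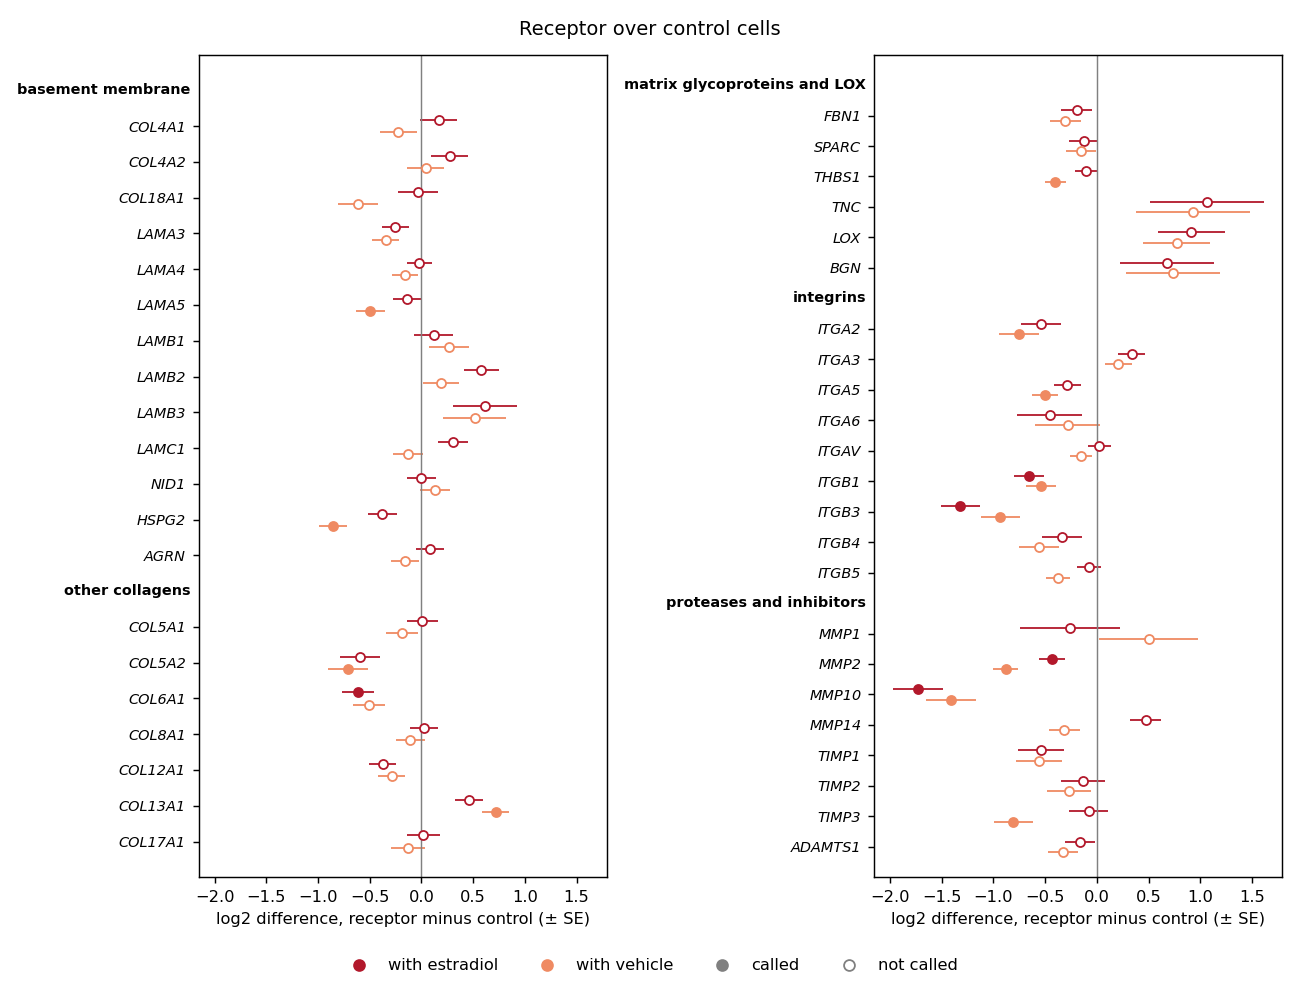
Log2 difference of receptor over control cells for the 43 tested genes by group of genes, with estradiol (dark red) and with vehicle (orange), as estimates with their SE from the limma fit. Filled points were called. MMP10 had the lowest difference with either treatment (-1.73 with estradiol and -1.41 with vehicle), and COL13A1 is the only filled point above 0. HSPG2, MMP14 and FBN1 were above background on no array of at least 1 group, so their points are not exact.

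Among the basement membrane genes, 2 of 13 were called lower in receptor cells under vehicle and 0 under estradiol. They were LAMA5, the alpha-5 laminin chain of endothelial basement membranes, and HSPG2, which encodes perlecan. LAMA5 had levels of 11.60, 11.55 and 11.58 in receptor cells with vehicle, against 12.30, 12.17 and 11.74 in control cells with vehicle. The receptor arrays lay together below every control array, while control array 3 lay well below control arrays 1 and 2. The difference was -0.49 ± 0.14 (limma adjusted p = 0.0467), and the call was lost in 15 of 25 alternatives. Among these were the omission of any receptor vehicle array, receptor estradiol array 2, control vehicle array 1 or 2, or any control estradiol array (limma adjusted p from 0.0510 to 0.177). Under estradiol the levels were 11.75, 11.52 and 11.66 in receptor cells and 11.91, 11.71 and 11.72 in control cells, which overlapped, and the difference was -0.14 ± 0.14 (limma adjusted p = 0.610).

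HSPG2 was below detection on all 6 receptor arrays. Its levels were 4.51, 4.48 and 4.49 in receptor cells with vehicle, against 5.39, 5.23 and 5.42 in control cells with vehicle, where it was detected on all 3 arrays. It was at least 1.42-fold lower in receptor cells under vehicle (limma adjusted p = 0.00233), which sets the control mean against the level at which detection starts on each receptor array. HSPG2 passed the detection filter only through control arrays, so a gene that passed in this way had to differ, and its call is a description rather than support. Under estradiol it was detected on 1 of 3 control arrays, with levels of 4.37, 4.52 and 4.37 in receptor cells and 4.61, 4.65 and 5.14 in control cells (limma adjusted p = 0.116).

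The other 11 basement membrane genes were not called in either comparison. COL18A1, whose collagen XVIII is cut to release endostatin, came nearest under vehicle: it had 8.95, 8.43 and 8.44 in receptor cells with vehicle and 9.46, 9.20 and 8.98 in control cells with vehicle. The groups did not overlap, and the difference was -0.61 ± 0.19 (limma adjusted p = 0.0700). Under estradiol LAMB2, the beta-2 laminin chain, had 7.90, 7.89 and 7.64 in receptor cells and 7.20, 7.40 and 7.09 in control cells. These groups did not overlap either, with a difference of 0.58 ± 0.17 (limma adjusted p = 0.0605). For the remaining 9 genes (COL4A1, COL4A2, LAMA3, LAMA4, LAMB1, LAMB3, LAMC1, NID1 and AGRN) the differences lay between -0.35 (LAMA3) and 0.51 (LAMB3) under vehicle, and between -0.25 (LAMA3) and 0.61 (LAMB3) under estradiol. The 2 probes of LAMA4, both detected on 12 arrays, disagreed. The brightest gave -0.16 under vehicle and -0.02 under estradiol, and the other 0.27 and 0.415.

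COL4A1 and COL4A2, the chains of the main type IV collagen, are divergent genes. Their starts are shown because both were also called between the replicate numbers of receptor cells, COL4A2 not in every setting. In the RefSeq promoter table (250 bases before to 50 after each gene's start, build GRCh38.p14) COL4A1 is on the minus strand at chr13:110307108-110307407 and COL4A2 on the plus strand at chr13:110307034-110307333. Capitals mark the 226 bases that the windows share, read on opposite strands, of which 76.5% are G or C.
COL4A1: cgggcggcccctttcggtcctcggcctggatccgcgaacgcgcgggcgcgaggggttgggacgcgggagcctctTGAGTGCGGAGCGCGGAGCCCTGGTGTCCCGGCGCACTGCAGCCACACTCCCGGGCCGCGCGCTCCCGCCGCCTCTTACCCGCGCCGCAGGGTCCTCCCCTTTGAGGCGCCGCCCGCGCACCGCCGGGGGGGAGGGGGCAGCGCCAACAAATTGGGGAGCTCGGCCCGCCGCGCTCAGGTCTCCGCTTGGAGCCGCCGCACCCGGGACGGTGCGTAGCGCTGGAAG
COL4A2: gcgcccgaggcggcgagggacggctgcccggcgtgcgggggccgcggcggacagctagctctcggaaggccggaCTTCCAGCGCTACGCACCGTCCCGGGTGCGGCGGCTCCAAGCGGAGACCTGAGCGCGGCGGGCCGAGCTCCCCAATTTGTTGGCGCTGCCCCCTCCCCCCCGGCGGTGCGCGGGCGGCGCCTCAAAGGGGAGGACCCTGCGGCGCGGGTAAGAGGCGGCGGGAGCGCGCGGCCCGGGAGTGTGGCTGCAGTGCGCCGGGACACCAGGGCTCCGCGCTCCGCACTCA

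Of the other collagens, 7 of 9 were tested. COL5A2 was called lower and COL13A1 higher under vehicle, and COL6A1 lower under estradiol. COL5A2, a chain of the fibril-forming collagen V, had 9.58, 8.995 and 8.94 in receptor cells with vehicle and 9.86, 9.97 and 9.81 in control cells with vehicle. All receptor arrays were below all control arrays, and receptor array 1 lay nearest to them. The difference was -0.71 ± 0.19 (limma adjusted p = 0.0402). The call was lost without receptor vehicle array 2 or 3, any control vehicle array or any control estradiol array (limma adjusted p from 0.0565 to 0.138). Under estradiol the difference was -0.60 ± 0.19 (limma adjusted p = 0.0836).

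COL13A1, a collagen that spans the cell membrane, was the only member called higher in either comparison. It had 6.55, 6.74 and 6.75 in receptor cells with vehicle and 6.07, 5.87 and 5.94 in control cells with vehicle, without overlap, a difference of 0.72 ± 0.13 (limma adjusted p = 0.00568). With estradiol it had 6.63, 6.18 and 6.37 in receptor cells and 5.97, 6.05 and 5.77 in control cells. These groups did not overlap, and the difference of 0.46 ± 0.13 was not called (limma adjusted p = 0.0521). A second probe of the gene gave 0.83 under vehicle and 0.47 under estradiol.

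COL6A1, a chain of the microfibrillar collagen VI, had 5.15, 4.66 and 5.04 in receptor cells with estradiol and 5.31, 5.79 and 5.61 in control cells with estradiol. The groups did not overlap, receptor array 2 was not above background, and the difference was -0.62 ± 0.15 (limma adjusted p = 0.0295). Without background correction it was -0.20 (limma adjusted p = 0.0671), and the call was also lost without receptor estradiol array 2 or control estradiol array 2 or 3 (limma adjusted p from 0.0959 to 0.131). Under vehicle it was -0.51 ± 0.15 (limma adjusted p = 0.0607). COL5A1, COL8A1, COL12A1 and COL17A1 were not called, with differences from -0.29 (COL12A1) to -0.11 (COL8A1) under vehicle and from -0.37 (COL12A1) to 0.02 (COL8A1) under estradiol. For COL8A1, a short-chain collagen that endothelial cells secrete, 3 detected probes disagreed: the brightest gave -0.11 under vehicle and the others 0.43 and 0.82.

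Of the 6 matrix glycoprotein genes tested (LOX included), THBS1 was called lower under vehicle and none was called under estradiol. THBS1 encodes thrombospondin-1, an inhibitor of angiogenesis. Its levels were 12.20, 12.32 and 12.10 in receptor cells with vehicle and 12.64, 12.73 and 12.47 in control cells with vehicle. The receptor arrays were lower without overlap, a difference of -0.40 ± 0.11 (limma adjusted p = 0.0344), a call that was lost without receptor vehicle array 1 or 3, control vehicle array 1 or 2 or any control estradiol array (limma adjusted p from 0.0512 to 0.147). Under estradiol the difference was -0.11 ± 0.11 (limma adjusted p = 0.604). TNC, LOX and BGN had the highest differences of this group under vehicle, 0.93, 0.77 and 0.73, with SEs of 0.55, 0.33 and 0.45. In each, receptor array 1 stood far above arrays 2 and 3, and none was called. SPARC and FBN1 differed by -0.15 and -0.30 under vehicle and were not called.

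The integrins had 4 of 9 subunits called lower under vehicle, ITGA2, ITGA5, ITGB1 and ITGB3, and 2 under estradiol, ITGB1 and ITGB3. None was called higher, and the median difference of the 9 was -0.50 under vehicle and -0.34 under estradiol. ITGB3 encodes the beta-3 subunit, which with alpha-V forms a receptor for vitronectin and fibronectin. It had 4.94, 4.74 and 4.61 in receptor cells with estradiol, against 6.10, 6.12 and 6.03 in control cells with estradiol. It had 5.20, 5.17 and 4.58 in receptor cells with vehicle, against 6.12, 6.10 and 5.53 in control cells with vehicle. Receptor cells were lower without overlap under either treatment, and 3 of their 6 arrays were not above background, while all 6 control arrays were. The differences were -1.32 ± 0.19 under estradiol (limma adjusted p = 0.00105) and -0.93 ± 0.19 under vehicle (limma adjusted p = 0.0102). The vehicle call was lost without control vehicle array 1 or 2 (-0.83 and -0.84, limma adjusted p = 0.0521 and 0.0577). ITGAV, its alpha partner, differed by -0.15 ± 0.11 under vehicle and 0.02 ± 0.11 under estradiol and was not called.

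ITGB1 encodes the beta-1 subunit, which pairs with most of the alpha subunits that bind collagens, laminins and fibronectin. It had 11.52, 11.29 and 11.33 in receptor cells with estradiol and 12.06, 12.06 and 11.97 in control cells with estradiol. It had 11.84, 11.41 and 11.27 in receptor cells with vehicle and 12.17, 12.05 and 11.91 in control cells with vehicle. All receptor arrays were lower than all control arrays of the same treatment, with receptor vehicle array 1 nearest to them. The differences were -0.65 ± 0.14 under estradiol (limma adjusted p = 0.0152) and -0.54 ± 0.14 under vehicle (limma adjusted p = 0.0370). The vehicle call was lost without receptor vehicle array 2 or 3, any control vehicle array or any control estradiol array (limma adjusted p from 0.0541 to 0.136), and the estradiol call without receptor estradiol array 2 or control estradiol array 1 or 2 (0.0619 to 0.0643). Of its 4 detected probes, those annotated to transcript variants 1A, 1C-2 and 1D gave -0.54, -0.87 and -1.02 under vehicle, and the probe for variant 1B, detected on 3 arrays, gave 0.06.

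ITGA2, the alpha subunit of a collagen receptor, had 8.80, 8.64 and 8.15 in receptor cells with vehicle and 9.28, 9.48 and 9.09 in control cells with vehicle. The groups did not overlap and the difference was -0.75 ± 0.19 (limma adjusted p = 0.0316), a call lost without receptor vehicle array 2 or 3 or control vehicle array 1 or 2 (limma adjusted p from 0.0665 to 0.134). Under estradiol it was -0.54 ± 0.19 (limma adjusted p = 0.116). ITGA5, the alpha subunit of the classical fibronectin receptor, had 10.80, 11.01 and 10.98 in receptor cells with vehicle and 11.49, 11.60 and 11.20 in control cells with vehicle. Its arrays did not overlap either, the difference was -0.50 ± 0.13 (limma adjusted p = 0.0328), and the call was lost without receptor vehicle array 1 or 2, control vehicle array 1 or 2 or any control estradiol array (limma adjusted p from 0.0503 to 0.144). Under estradiol it was -0.29 ± 0.13 (limma adjusted p = 0.207). ITGA3, ITGA6, ITGAV, ITGB4 and ITGB5 were not called. ITGB4, the beta partner of alpha-6 in laminin receptors, had -0.56 under vehicle and -0.34 under estradiol, ITGB5 -0.38 and -0.08, ITGA6 -0.28 and -0.46, and ITGA3 0.21 and 0.34. A dimmer probe of ITGA3, detected on 10 arrays, had the opposite sign, with -0.09 under vehicle and -0.12 under estradiol.

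**Figure D2:**
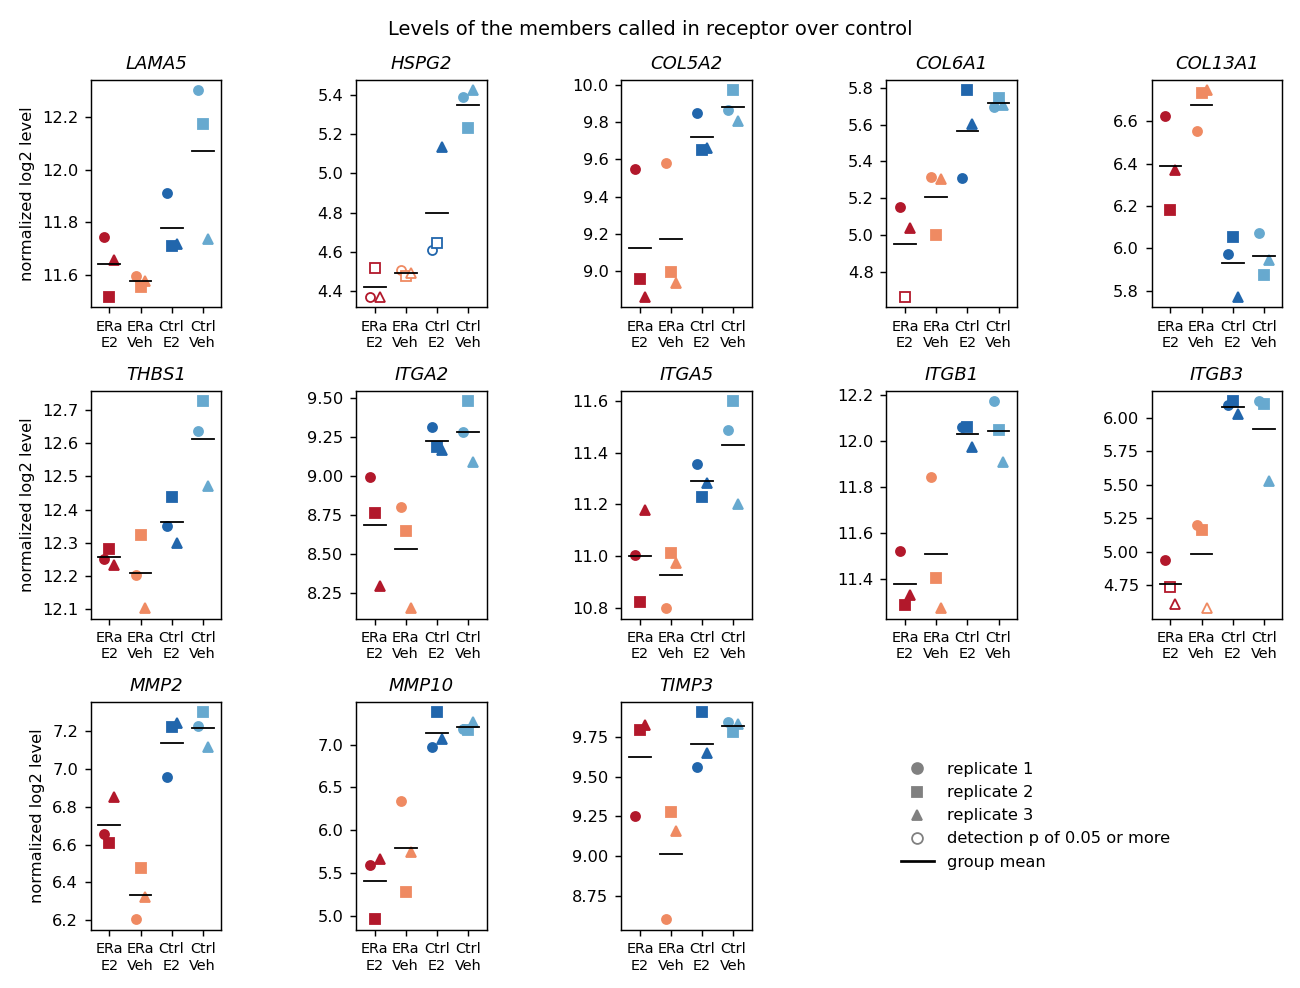
Normalized log2 level on each of the 12 arrays for the 13 genes called in either comparison of receptor over control. Symbols mark the replicate number, open symbols a detection p-value of 0.05 or more, and bars the mean of 3 arrays. In MMP10 and ITGB3 the receptor arrays lie below every control array under both treatments, and in TIMP3 the receptor arrays with estradiol reach the control arrays.

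Of the 8 proteases and inhibitors, MMP2, MMP10 and TIMP3 were called lower under vehicle and MMP2 and MMP10 under estradiol. The medians of the 8 were -0.44 under vehicle and -0.21 under estradiol. MMP10 encodes stromelysin-2, which cuts proteoglycans, laminin and fibronectin. It had 5.59, 4.96 and 5.66 in receptor cells with estradiol and 6.97, 7.38 and 7.06 in control cells with estradiol. It had 6.35, 5.28 and 5.75 in receptor cells with vehicle and 7.18, 7.17 and 7.26 in control cells with vehicle. Every receptor array was lower than every control array, and receptor arrays numbered 2 were the lowest under either treatment. MMP10 was 3.32-fold lower under estradiol (-1.73 ± 0.24 log2, limma adjusted p = 0.000941) and 2.66-fold lower under vehicle (-1.41 ± 0.24 log2, limma adjusted p = 0.00387).

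MMP2 encodes gelatinase A, which cuts type IV collagen. It had 6.66, 6.61 and 6.85 in receptor cells with estradiol and 6.96, 7.22 and 7.24 in control cells with estradiol. It had 6.21, 6.48 and 6.32 in receptor cells with vehicle and 7.23, 7.30 and 7.12 in control cells with vehicle. The groups did not overlap under either treatment, and the gap was wider with vehicle. The differences were -0.43 ± 0.12 under estradiol (limma adjusted p = 0.0476) and -0.88 ± 0.12 under vehicle (limma adjusted p = 8.75e-04). The vehicle call held in all 25 alternatives, and the estradiol call was lost in 12 of 25, among them the omission of receptor estradiol array 1 or 2, control estradiol array 2 or 3, any control vehicle array or receptor vehicle array 3 (limma adjusted p from 0.0515 to 0.167).

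TIMP3 encodes the inhibitor that stays bound to the matrix. It had 8.60, 9.28 and 9.16 in receptor cells with vehicle and 9.85, 9.78 and 9.83 in control cells with vehicle. The receptor arrays were lower without overlap, array 1 most of all, and the difference was -0.81 ± 0.19 (limma adjusted p = 0.0210). The call was lost without receptor vehicle array 1 or any of the 3 control vehicle arrays (limma adjusted p from 0.0533 to 0.0739). With estradiol it had 9.25, 9.80 and 9.83 in receptor cells and 9.56, 9.91 and 9.65 in control cells, which overlapped, with a difference of -0.08 ± 0.19 (limma adjusted p = 0.854). MMP1 (interstitial collagenase), MMP14 (a membrane-anchored activator of MMP2), TIMP1, TIMP2 and ADAMTS1 were not called. The differences of MMP1, TIMP1, TIMP2 and ADAMTS1 were 0.50, -0.56, -0.27 and -0.33 under vehicle and -0.26, -0.54, -0.13 and -0.17 under estradiol. MMP14 was at least 1.10-fold lower in receptor cells under vehicle and at least 1.13-fold higher under estradiol, against groups in which no array was above background.

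Promoter sequences were looked up for all 46 genes, and 35 had an entry, with 46 starts in all. Both strands were searched for 5 motifs. TGANTCA, a loose form of the AP-1 site that takes any base at N, was found in 4 of 46 starts (8.7%, against 7.71% of 35116 promoters). These were the starts of MMP10, ITGA5, LAMA3 and 1 of the starts of LAMB3. TATAAA was found in 15.2% of the members' starts and 11.5% of all promoters, and GGGCGG, the letters of a GC box, in 73.9% and 45%. The full estrogen response element (GGTCA and TGACC with 3 bases between them) was found in 0 of 46 starts and 0.057% of all promoters, and GGTCA, which is part of that element, in 17.4% and 37.4%. Some genes have several starts whose windows overlap. MMP10 and ITGA5 are shown because both were called lower in receptor cells and hold this loose form, as TGAATCA in MMP10 and TGAGTCA in ITGA5. MMP10 is on the minus strand at chr11:102780579-102780878 and ITGA5 on the minus strand at chr12:54419217-54419516 (GRCh38.p14, RefSeq). Capitals mark TGANTCA and, in MMP10, also TATAAA, whose first bases lie at -67 and -31 in MMP10 and at -6 in ITGA5, counted from 0 at the annotated start.
MMP10: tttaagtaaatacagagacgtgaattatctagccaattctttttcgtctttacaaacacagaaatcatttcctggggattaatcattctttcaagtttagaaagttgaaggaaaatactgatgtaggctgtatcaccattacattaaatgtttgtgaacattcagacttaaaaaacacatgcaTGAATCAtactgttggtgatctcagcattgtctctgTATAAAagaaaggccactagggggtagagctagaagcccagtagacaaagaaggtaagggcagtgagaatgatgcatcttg
ITGA5: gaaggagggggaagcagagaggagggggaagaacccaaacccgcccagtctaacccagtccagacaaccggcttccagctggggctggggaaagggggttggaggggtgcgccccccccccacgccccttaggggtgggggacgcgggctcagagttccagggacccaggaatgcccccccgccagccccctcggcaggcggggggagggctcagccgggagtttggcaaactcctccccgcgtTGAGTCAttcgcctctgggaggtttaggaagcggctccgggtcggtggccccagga

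Estradiol was compared with vehicle in receptor cells and in control cells, which asks what the hormone adds with and without the transfected receptor. None of the 43 genes was called in receptor cells (0.0721% of all genes tested were), and their log2 differences ran from -0.49 (MMP1) to 0.61 (TIMP3). None was called in control cells (0% of all genes), where the log2 differences ran from -0.55 (HSPG2) to 0.27 (MMP1). None was called in the difference between the responses (0.0328% of all genes). At an unadjusted p under 0.05 the counts in receptor cells, control cells and their difference were 4, 3 and 4 of 43. The median difference of the 43 genes was 0.045 in receptor cells and -0.097 in control cells, against -0.0059 and -0.0030 over all genes, and the median SE was 0.154. At unadjusted p under 0.05, 527 of all genes differed in receptor cells, 351 in control cells and 437 in the difference between the responses.

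In receptor cells, arrays of the same number deviated together from their group means over all genes, so the fit with the replicate number as a block applies there. It called 35 genes of the array higher with estradiol in receptor cells (0.230%) and 0 lower (0%), and again no member. TIMP3 came nearest: it had 9.25, 9.80 and 9.83 in receptor cells with estradiol and 8.60, 9.28 and 9.16 with vehicle. Within each number estradiol was higher, by 0.65, 0.52 and 0.67, although arrays of different number overlapped. The difference was 0.61 ± 0.19 (limma adjusted p = 0.934), and with the block the SE was 0.10 and the limma adjusted p = 0.0594. In control cells TIMP3 had 9.56, 9.91 and 9.65 with estradiol and 9.85, 9.78 and 9.83 with vehicle, a difference of -0.11 ± 0.19. The difference between these responses was 0.73 ± 0.27 (limma adjusted p = 1.000, and 0.237 with the block).

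MMP2, MMP14, TIMP3 and COL13A1 were the members with an unadjusted p under 0.05 in receptor cells in the fit without the block. The SEs and p-values that follow are from that fit. Within numbers 1, 2 and 3, estradiol less vehicle was 0.451, 0.135 and 0.528 for MMP2, and 0.07, -0.555 and -0.38 for COL13A1. MMP2 had 6.66, 6.61 and 6.85 with estradiol and 6.21, 6.48 and 6.32 with vehicle in receptor cells, without overlap, a difference of 0.37 ± 0.12 (limma adjusted p = 1.000). MMP14 gives bounds only, since it was above background in no array of the receptor vehicle group or the control estradiol group. In receptor cells it had 5.14, 5.05 and 4.94 with estradiol, detected on all 3 arrays, and 4.72, 4.80 and 4.45 with vehicle, detected on none. In control cells MMP14 had 4.47, 4.71 and 4.53 with estradiol, detected on none, and 4.88, 4.74 and 5.29 with vehicle, detected on 2. MMP14 was thus at least 1.15-fold higher with estradiol in receptor cells and at least 1.07-fold lower with estradiol in control cells, and neither was called (limma adjusted p = 1.000 for both). COL13A1 differed by -0.29 ± 0.13 in receptor cells (limma adjusted p = 1.000).

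**Figure D3:**
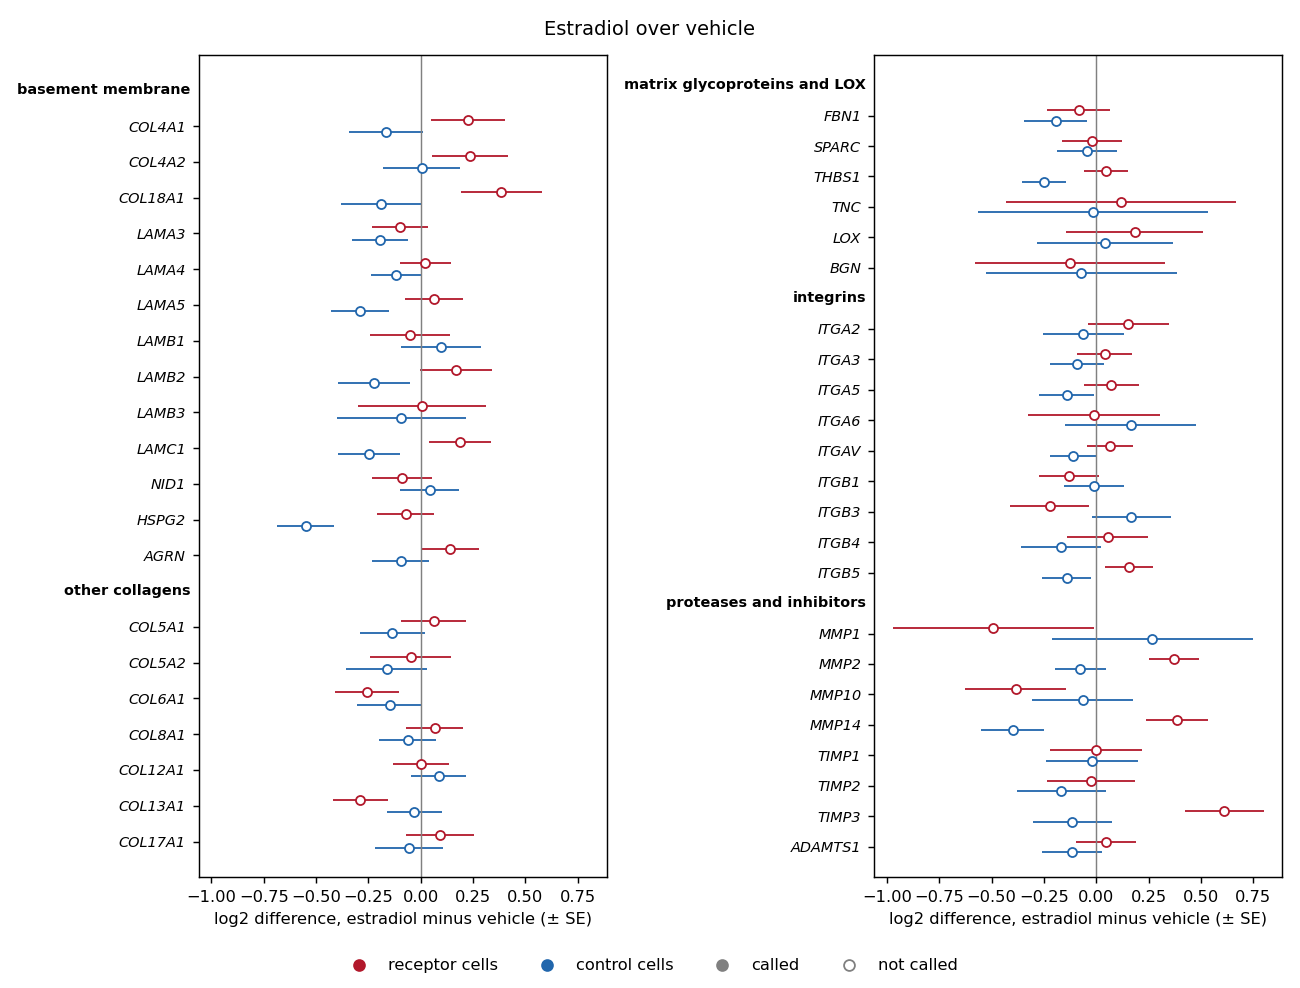
Log2 difference of estradiol over vehicle for the 43 tested genes by group of genes, in receptor cells (red) and control cells (blue), with SE from the limma fit. No point is filled, since none was called, and TIMP3 in receptor cells lies highest at 0.61. The points of HSPG2, MMP14 and FBN1 are not exact, for want of signal above background in some groups.

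Each replicate number occurs once with estradiol and once with vehicle in each line, so the numbers could be compared within a line. A limma F test on 2 degrees of freedom, with treatment as a covariate, called 18 of 43 genes in receptor cells, which is 41.9%, where 18.5% of all genes were called. In control cells it called 0 of 43 genes (0% of all genes, while 1 member and 1110 of all genes had an unadjusted p under 0.05). By groups, 5 of 13 basement membrane genes, 2 of 7 other collagens, 3 of 6 glycoproteins, 3 of 9 integrins and 5 of 8 proteases and inhibitors were called. Of the 18, 15 were highest in number 1 and 3 in number 2, and 10 were lowest in number 3. Over all 2822 genes called, 1349 were highest in number 1 and 1303 were lowest in number 3. Without number 1 the test called 4 of 43 members and 4.95% of all genes, so calls fell over the whole array. Of the markers, 4 of 9 endothelial genes (all highest in number 1) and 5 of 7 epithelial genes were also called between numbers, and their part in these differences was not tested.

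The widest range was that of TNC, tenascin-C, a glycoprotein known from wound repair and tumour stroma. It had 7.54, 5.52 and 5.48 with estradiol and 7.41, 5.49 and 5.28 with vehicle in receptor cells numbered 1, 2 and 3, while the 6 control arrays lay between 5.01 and 5.24. Number 1 was about 2 log2 units above the others under either treatment (spread of the number means 2.10, limma adjusted p = 2.45e-04). BGN, the proteoglycan biglycan, had 12.44, 10.52 and 10.97 with estradiol and 12.51, 10.88 and 10.92 with vehicle (limma adjusted p = 0.00116). LOX, lysyl oxidase, which cross-links collagen and elastin, had 8.78, 7.29 and 7.68 with estradiol and 8.39, 7.33 and 7.49 with vehicle (limma adjusted p = 0.00378). Both were highest in number 1, far above control arrays, which reached 10.76 for BGN and 7.14 for LOX. LAMB3, the beta-3 chain of laminin-332, had 9.10, 7.99 and 8.12 with estradiol and 9.16, 8.12 and 7.91 with vehicle (limma adjusted p = 0.00406) and stood out in number 1 too.

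**Figure D4:**
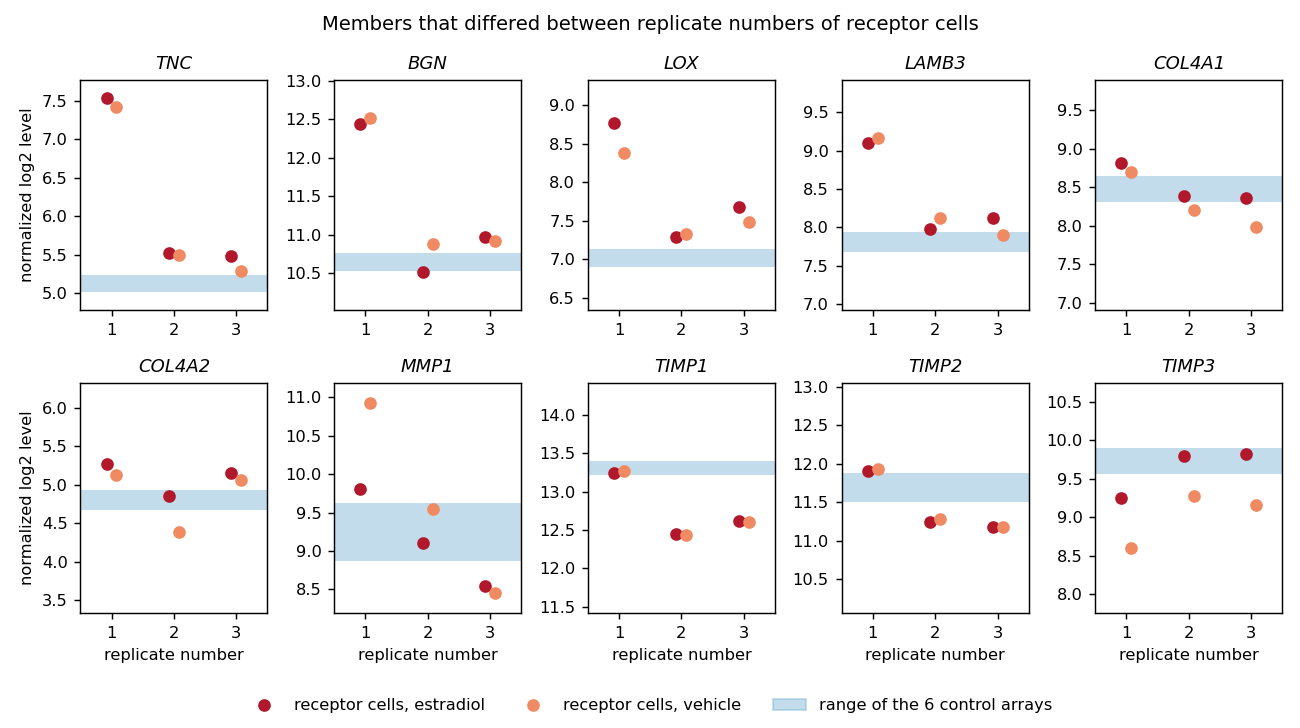
Normalized log2 level against replicate number for 10 of the 18 genes that differed between numbers in receptor cells, chosen after their values were seen, with estradiol (dark red) and vehicle (orange). The band is the range of the 6 control arrays, and every panel spans 3 log2 units. TNC, BGN, LOX and LAMB3 are far above the band in number 1, TIMP1 is below it in numbers 2 and 3, and TIMP3 is lowest in number 1.

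COL4A1 and COL4A2, whose start windows overlap, were both called and both highest in number 1. COL4A1 had 8.81, 8.39 and 8.36 with estradiol and 8.70, 8.21 and 7.99 with vehicle (limma adjusted p = 0.0345). COL4A2 had 5.28, 4.86 and 5.15 with estradiol and 5.13, 4.39 and 5.07 with vehicle (limma adjusted p = 0.0436). For COL4A2 receptor vehicle array 2, at 4.39, was not above background. Its call was lost without background correction, in the authors' normalized table and without a detection filter. COL4A1 and COL4A2 parted in their lowest number, 3 for COL4A1 and 2 for COL4A2. COL18A1 had 9.33, 8.59 and 9.04 with estradiol and 8.95, 8.43 and 8.44 with vehicle (limma adjusted p = 0.0448). COL17A1, a transmembrane collagen of epithelial anchoring, had 11.40, 10.78 and 11.05 with estradiol and 11.23, 10.74 and 10.98 with vehicle (limma adjusted p = 0.0388). Both had their highest mean in number 1 and their lowest in number 2. LAMB1, the beta-1 laminin chain, was highest in number 2, with 10.79, 10.95 and 10.40 with estradiol and 10.77, 11.17 and 10.35 with vehicle (limma adjusted p = 0.0249). COL5A2 had 9.55, 8.96 and 8.86 with estradiol and 9.58, 8.995 and 8.94 with vehicle (limma adjusted p = 0.0161), highest in number 1.

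The 3 inhibitors were all called, and TIMP3 differed from the others in its order. TIMP1 had 13.24, 12.44 and 12.61 with estradiol and 13.27, 12.44 and 12.60 with vehicle (limma adjusted p = 0.00915), so number 1 was within the control arrays (13.21 to 13.40) and numbers 2 and 3 below them. TIMP2 was also highest in number 1, with 11.91, 11.24 and 11.18 with estradiol and 11.93, 11.29 and 11.18 with vehicle (limma adjusted p = 0.0110). TIMP3 ran the other way, lowest in number 1, with number means of 8.93, 9.54 and 9.49 (limma adjusted p = 0.0215). MMP1 had 9.81, 9.10 and 8.55 with estradiol and 10.93, 9.55 and 8.46 with vehicle, and the number means spread over 1.86 (limma adjusted p = 0.00836). MMP10 had number means of 5.97, 5.12 and 5.71 (limma adjusted p = 0.0279), all below the control arrays, which began at 6.97.

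Of the integrins, ITGA2, ITGA6 and ITGB4 were called, and each was lowest in number 3. ITGA6, the alpha-6 chain of laminin receptors, had 5.67, 5.92 and 4.95 with estradiol and 5.65, 6.03 and 4.88 with vehicle (limma adjusted p = 0.00478). ITGA2 had 8.99, 8.76 and 8.30 with estradiol and 8.80, 8.64 and 8.15 with vehicle (limma adjusted p = 0.0190). ITGB4 had 7.41, 7.40 and 6.997 with estradiol and 7.59, 7.31 and 6.75 with vehicle (limma adjusted p = 0.0388). Number 3 was thus the lowest of the receptor numbers for all 3 subunits under either treatment. It was also the lowest for 1303 of the 2822 genes called over the whole array. COL5A2, ITGA2, MMP10 and TIMP3 were called both between numbers and between lines. Among the 15 genes highest in number 1, its mean was above every control array for 9, within the control arrays for 2 and below every control array for 4. HSPG2, not above background on any receptor array, had the smallest spread of number means, 0.0636.

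In a comparison chosen after seeing the data, each member was set against the median of its 50 neighbouring genes, taken in RefSeq order among 11559 positioned genes. For 37 members these were 25 on either side, and for the other 6 (COL4A1, COL4A2, COL18A1, AGRN, COL6A1 and ADAMTS1) the window met a chromosome end and was uneven, with 42 before and 8 after COL6A1. For ITGB1, on chromosome 10 with neighbours from OTUD1 to TIMM23, that median in receptor arrays 1, 2 and 3 less the control mean was -0.19, -0.36 and -0.37 under estradiol and -0.22, -0.29 and -0.31 under vehicle. The neighbours were thus lower on every receptor array. With the neighbours' median taken off each array, the ITGB1 difference was -0.34 under estradiol (limma adjusted p = 0.114) and -0.27 under vehicle (limma adjusted p = 0.191), and neither was called. LAMA5, whose neighbours had -0.21, -0.17 and -0.09 under vehicle, came to -0.34 (limma adjusted p = 0.126). ITGA5 had neighbours at 0.003, -0.097 and -0.012 under vehicle and changed little, from -0.50 to -0.48 (limma adjusted p = 0.0513 after the change). The other 9 genes called under vehicle were called here too. ITGB3 had -1.34 under estradiol and -0.94 under vehicle, and MMP10 had -1.78 and -1.52.

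**Figure D5:**
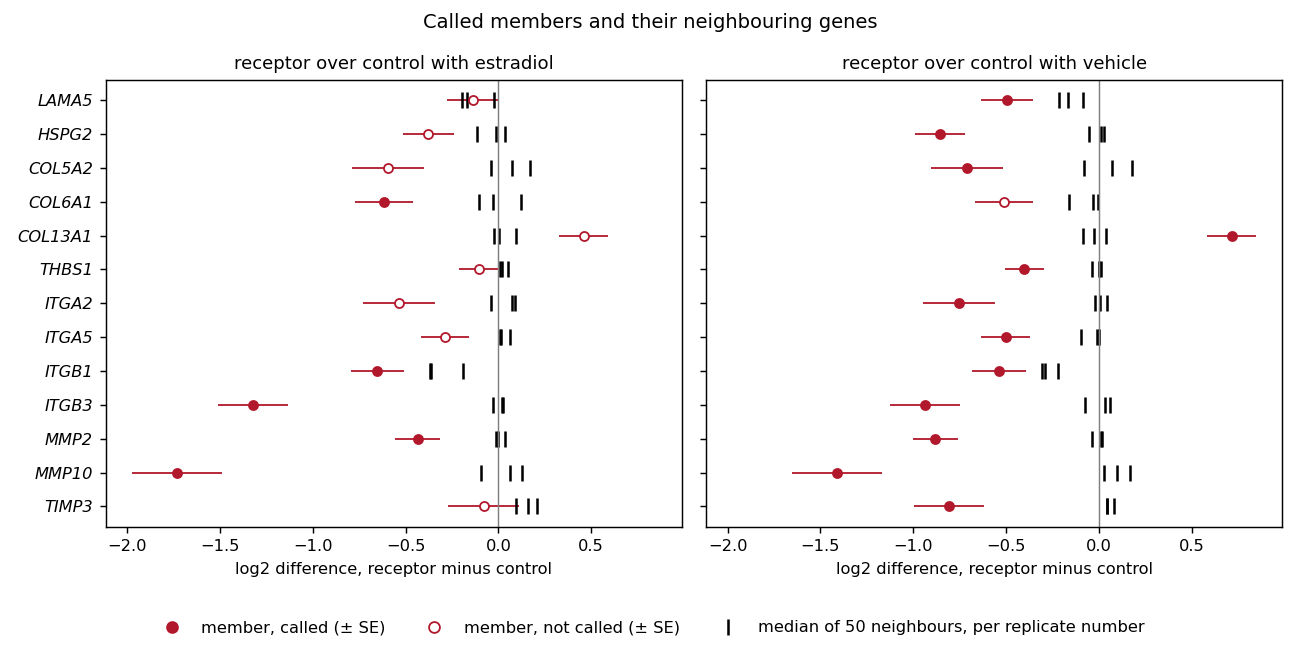
Log2 difference of receptor over control cells, with estradiol (left) and with vehicle (right), for the 13 called genes (circles with SE, filled where called), beside the median difference of their 50 neighbouring genes on each of the 3 receptor arrays (ticks). The ticks of ITGB1 lie between -0.37 and -0.19 on the 6 arrays, those of ITGB3 between -0.08 and 0.06 and those of MMP10 between -0.09 and 0.17. HSPG2 was above background on no receptor array, so its circles are not exact.

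Other genes of the same processes were taken from 5 lists, with receptor cells compared with control cells under each treatment. Higher and lower here mean in receptor cells. Over all genes tested, 7.6% were called under estradiol and 8.54% under vehicle. The shares were 11.5% and 15.4% of other matrix genes, 9.09% and 18.2% of collagen maturation and 19% and 14.3% of other receptors. They were 5.26% and 10.5% of the adhesion complex and 30.4% and 17.4% of other proteases. The adhesion complex, and collagen maturation under estradiol, lay near the share over all genes, so these counts show nothing particular to them. Of 26 other matrix genes tested, 3 were called lower and 1 higher under vehicle, and 2 lower and 1 higher under estradiol. MMRN1, the secreted glycoprotein multimerin-1, had -2.19 ± 0.51 under estradiol (limma adjusted p = 0.0199) and -2.29 ± 0.51 under vehicle (limma adjusted p = 0.0163). Its receptor arrays were uneven: number 1 had 8.65 with estradiol and 8.76 with vehicle, and numbers 2 and 3 lay between 6.73 and 7.025. The control arrays of MMRN1 lay between 9.47 and 9.92. LTBP3, a binding protein of latent TGF-beta, had -0.53 ± 0.12 and -0.79 ± 0.12 under estradiol and vehicle. COL27A1 was higher in receptor cells by 0.84 ± 0.12 under estradiol. FBLN2 (fibulin-2) was at least 1.20-fold lower in receptor cells under vehicle. FBLN2 was below detection on every receptor array and passed the detection filter only through control arrays. Its call is therefore a description rather than support. Of 11 genes of collagen maturation, 1 was lower under estradiol and 2 under vehicle: PLOD3, a lysyl hydroxylase, had -0.68 ± 0.11 and -0.72 ± 0.11, and P4HB, a subunit of prolyl 4-hydroxylase, -0.45 ± 0.11 under vehicle.

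Of 21 other matrix receptors, 3 were higher and 1 lower in receptor cells under estradiol, and 2 higher and 1 lower under vehicle. ITGA11, an alpha subunit that pairs with beta-1 to bind collagen, was higher in receptor than in control cells under either treatment. The difference was 1.23 ± 0.13 under estradiol (limma adjusted p = 8.34e-05) and 1.00 ± 0.13 under vehicle (limma adjusted p = 4.56e-04). ITGA11 had 7.33, 7.45 and 7.16 in receptor cells with vehicle and 6.30, 6.43 and 6.20 in control cells with vehicle, so the receptor arrays were higher. ITGAX, which passed the detection filter only through receptor arrays, was also higher (0.99 ± 0.19 under vehicle, and at least 1.76-fold under estradiol). The tetraspanin CD151, which binds laminin-receptor integrins, was lower (-0.54 ± 0.10 under estradiol and -0.53 ± 0.10 under vehicle).

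Of 19 adhesion complex genes, 1 was higher in receptor cells under estradiol, and 1 lower and 1 higher under vehicle. The adaptor LIMS1 (PINCH1) was higher in receptor cells by 1.13 ± 0.22 under estradiol and 0.80 ± 0.22 under vehicle. The adaptor BCAR1 was lower in receptor cells (-0.77 ± 0.15 under vehicle). Of 23 other proteases and their partners, 2 were higher and 5 lower in receptor cells under estradiol, and 1 higher and 3 lower under vehicle. ADAM15 had -0.67 ± 0.13 and -0.74 ± 0.13, and MMP28 -1.04 ± 0.21 and -0.93 ± 0.21 under estradiol and vehicle. ADAM19 was higher in receptor cells by 0.89 ± 0.20 under estradiol, and PLAU, the urokinase-type plasminogen activator, by 0.84 ± 0.17 under vehicle. None of the 5 lists had a gene called for estradiol over vehicle in receptor cells (0.0721% of all genes were) or in control cells (0%).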

How the data were processed

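RNA from 12 cultures was hybridised to Illumina bead arrays by the submitters, 3 arrays in each of 4 groups, which were taken from the sample titles. The deposited non-normalized table holds a bead summary intensity and a detection p-value for each of 47322 probes and each array, per the file headers. The authors' normalized table (also intensity, with detection p-values) was used as an alternative only, and lumi is named in the submitters' processing notes without a version. Its settings and the arrays' slides are not given in the sources used here.

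From the deposited intensity values, limma 3.58.1 in R 4.3.3 corrected background from the detection p-values (neqc, offset 16), quantile-normalized the arrays and took log2. One probe with a missing value was left out. Probes with detection p under 0.05 on at least 3 arrays were kept, and the brightest probe stood for each of 15249 genes. Gene symbols were brought up to date through RefSeq. All 12 arrays entered 1 linear model with 4 group means (8 residual and 4.62 prior degrees of freedom) with Benjamini-Hochberg adjustment, and the steps were tested on simulated data. The number of arrays limits the precision.

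The members and lists were chosen with earlier results of these data known. All 46 members are accounted for, those called in any comparison with full values, and of each other list up to 3 called genes with the smallest p are named for each comparison. Alternatives were other background correction and normalization, filters, probe rules, blocks, array weights and omitted arrays. Same-numbered arrays of estradiol and vehicle correlated in their deviations from the group means with r of 0.762, 0.390 and 0.666 in receptor cells, which the numbers were taken to pair, and of 0.0805, 0.0327 and 0.106 in control cells, which they were not.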

Additional observations from a re-analysis of the deposited data

How the results depend on the processing

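In the comparison under vehicle, 12 members were called (8.54% of all genes). From 4 to 17 were called when single arrays, or both receptor arrays of a number, were left out. The count was 7 without receptor vehicle array 2 or 3 (4.24% and 10.2% of all genes) or any control estradiol array (6.6% to 6.7%). It was 4 without control vehicle array 1 or 2 (3.86% and 3.14%). It was 6 without both receptor arrays of number 2 (4.18%) and 17 without both of number 1 (13%). The share over all genes thus changed as well. Under estradiol 5 were called (7.6% of all genes), and from 2 to 9 with omissions. The count was 8 without receptor vehicle array 1 (9.34% of all genes) and 3 without receptor estradiol array 2 (4.22%). It was 2 without control estradiol array 2 (3.82%) and 3 without control estradiol array 3 (3.95%). It was 9 without both receptor arrays of number 1 (11.8%) and 2 without both of number 2 (3.95%). With array weights 10 members were called under estradiol and 18 under vehicle, where 14.7% and 19.8% of all genes were called. Without a detection filter the counts were 5 and 8 of 46 (3.39% and 3.68%), and COL5A2, ITGA2, ITGB1 and LAMA5 were lost under vehicle. With only the arrays of the groups compared the counts were 4 and 8 (4.91% and 6.01%). There COL6A1 and MMP2 were lost under estradiol, and ITGA5, ITGB1, LAMA5 and THBS1 under vehicle. The number as a replicate block gave 8 under estradiol and 15 under vehicle, where 10.3% and 11.4% of all genes were called. Same-numbered arrays of the lines did not deviate together, however (r from -0.053 to 0.036). The block changed no call of a member for estradiol over vehicle. Between replicate numbers in receptor cells, 18 members were called (18.5% of all genes), and from 4 to 15 with a number left out. The count was 4 without number 1 (4.95% of all genes), 15 without number 2 (24.2%) and 13 without number 3 (10.6%). Without background correction 23 of 43 were called (30.2% of all genes), and 23 in the authors' normalized table (30.3%). The stricter detection filter called 17 of 38 (29.1%), and the mean of all detected probes 17 of 43 (17.5%). With no detection filter 12 of 46 were called (6.01%), so the share over all genes depended strongly on the setting. In control cells 0 members were called in every alternative run. None of the genes called between lines changed sign in the alternatives run. The members' median for estradiol over vehicle in receptor cells (0.045) was negative without receptor vehicle array 3 (-0.058), without receptor estradiol array 1 (-0.047), without both receptor arrays of number 3 (-0.014) and with array weights (-0.011). COL13A1 and MMP2 under vehicle, ITGB3 under estradiol and MMP10 under both treatments were called in all 25 alternatives. HSPG2 under vehicle was called in the 24 that tested it. It passed the detection filter of the main fit only through control arrays, so these calls are a description rather than support. The slide as a block was not run, since no slide is given. Dim probes limit HSPG2, ITGB3, COL4A2, COL6A1 and MMP14, which lay near background on part of the arrays.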
